A study of Homo sapiens with 6 samples.

Results

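Complex I genes were followed in the established colorectal carcinoma cell line HCT116, of human origin, after RNA interference against RRN3. Members were the rows of the deposited TPM table whose symbol begins with NDUF, continues with A, B, C, S, V, AB or AF and ends in a number, which gave 46 of the 25662 rows. Of these, 38 carry subunit names and 8 are the assembly factors NDUFAF1 to NDUFAF8. TPM is a transcript abundance scaled for transcript length and for the library total. All 46 members reached the mean of 1 TPM required for testing, so none was lost to the filter on low values. One of the 38, NDUFA4, kept its old name but is now assigned to complex IV, and it is given separately where this matters.

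Cells were transfected with a control siRNA (n = 3) or with an siRNA against RRN3 (n = 3), and the labels give no siRNA dose and no time after transfection. RRN3 is the initiation factor that recruits RNA polymerase I to ribosomal RNA genes. The series describes its libraries as biological replicates, all of 1 cell line, and nothing states whether cultures were grown separately, so the p-values may measure technical spread. RRN3 transcript stood at 20.9, 14.7 and 14.1 TPM after control siRNA and at 2.70, 1.22 and 0.925 TPM after RRN3 siRNA, with an exact two-sided permutation p of 0.1, the smallest that 3 against 3 libraries allow. Sequencing depth is unknown, since TPM does not keep it. Of the epithelial markers, EPCAM ranged from 104 to 168 TPM and KRT8 from 2515 to 6628 TPM over the 6 libraries, whereas the intestinal markers VIL1 and CEACAM5 stayed below 1 TPM. Of 4 markers of other cells, COL1A2 was at 0 in every library and PECAM1 reached 0.0296 TPM, whereas VIM ranged from 0.564 to 2.48 TPM and COL1A1 from 6.78 to 10.4 TPM. Both VIM and COL1A1 were lower in every RRN3 siRNA library than in every control library and did not pass (limma adjusted p = 0.082 and 0.102), and their part in the results was not tested. Deviations of a library from its group mean correlated across genes with transcript GC content, at -0.46, 0.42 and 0.07 in the control siRNA libraries and at -0.50, 0.16 and 0.46 in the RRN3 siRNA libraries. The replicates numbered 1 thus deviated in one direction in both groups, and their part in the results was measured by leaving them out.

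Complex I, the NADH:ubiquinone oxidoreductase of the inner mitochondrial membrane, passes electrons from NADH to ubiquinone and uses the energy released to pump protons out of the matrix. Its matrix arm holds the N module, where NADH is oxidised by a flavin and a chain of iron-sulfur clusters, and the Q module, where ubiquinone is reduced. Its membrane arm holds the proton pumps, which are encoded by the mitochondrial genome and surrounded by small nuclear-encoded subunits. Assembly factors bind or modify intermediates and are absent from the finished enzyme.

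No member changed by more than 1 on the log2 scale, whereas 6.98% of all 12157 genes tested did. In limma with Benjamini-Hochberg adjustment over all genes, 3 members rose, 10 fell and 33 did not pass the threshold of adjusted p 0.05. These 13 called members were 28.3% of the 46, against 30.3% of all genes. The fallen members were 21.7%, against 19.0% of all genes, and the risen members 6.52%, against 11.2%. The median log2 change was -0.12 over the members and -0.05 over all genes tested. The groups did not overlap in TPM for 21 members (45.7%, against 44.8% of all genes), with 14 of them lower after RRN3 siRNA (30.4%, against 26.9%) and 7 higher (15.2%, against 17.9%). In the main fit the shares of complex I genes called were therefore near the background. Processing moved these shares. Under median-of-ratios scaling 15.2% of members were called, against 34.0% of all genes. With GC trends removed 3 members rose and 7 fell (21.7% called, against 44.4%). Without control siRNA replicate 2 the member share was the larger, at 30.4% against 22.2%. The split depended on scaling, since median-of-ratios scaling gave 4 risen and 3 fallen members, quantile normalization 5 and 8, and likewise 5 and 8 when TPM was rescaled without mitochondrial and ribosomal protein genes. Among all genes 1367 rose and 2312 fell, whereas the counts were 2017 and 2115 under median-of-ratios scaling, 2205 and 2284 under quantile normalization, and 2729 and 2658 with GC trends removed. In cultures measured in bulk, less RNA per cell and fewer cells of a given state cannot be told apart.

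**Figure D1:**
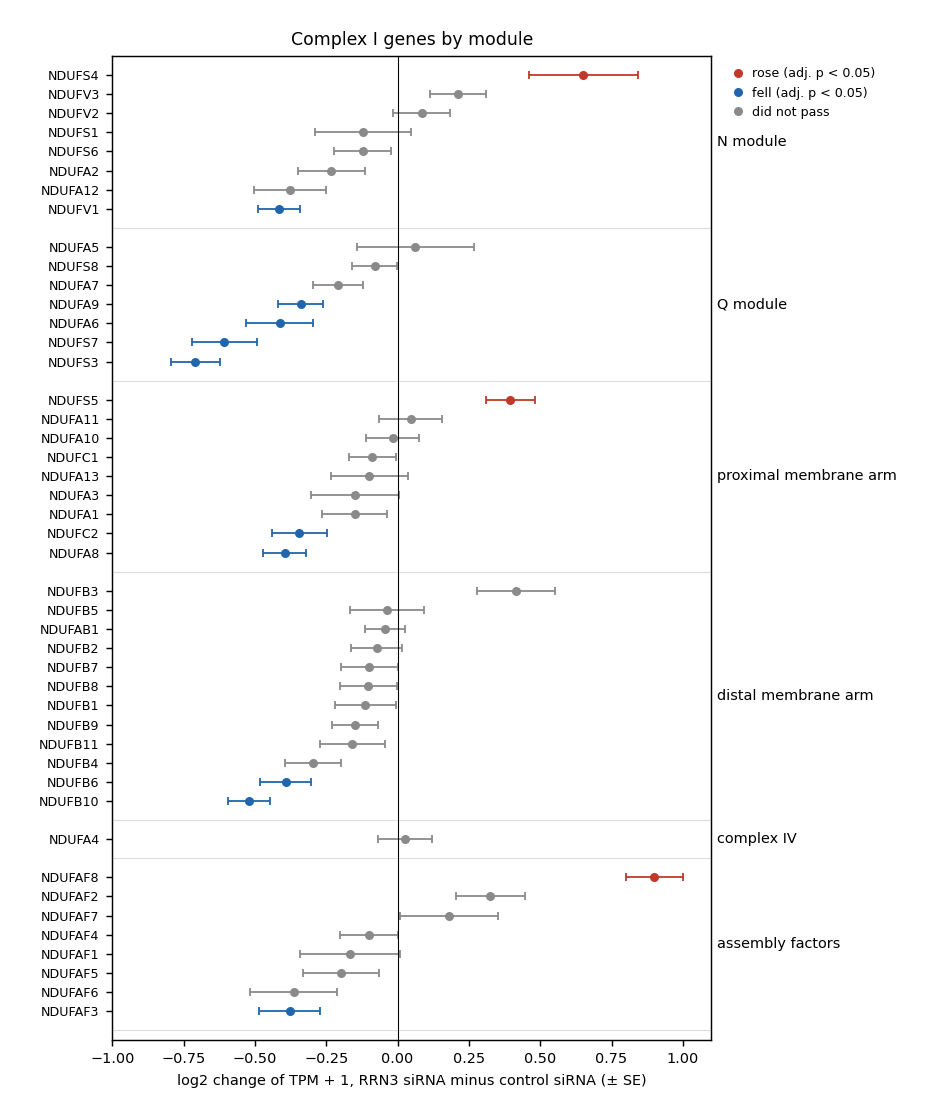
Log2 change of TPM + 1 (RRN3 siRNA minus control siRNA, n = 3 per group) with its SE for the members reported by name, grouped by module, with colour giving the limma call. NDUFAF8 lies farthest to the right at 0.90 and NDUFS3 farthest to the left at -0.71, and 34 members lie below 0.

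Levels differed widely between subunits of the same enzyme. Mean TPM over the 6 libraries ran from 19.7 for NDUFA5, a small Q-module subunit, to 604 for NDUFB9, a subunit of the far membrane arm, with a median of 137 over the 38 subunit genes. Of these, 29 exceeded 100 TPM. Assembly factor genes lay lower on the same per-length scale, from 5.85 TPM for NDUFAF7 to 121 TPM for NDUFAF8, with a median of 24.1 TPM. NDUFAF8 was the only one of the 8 above 100 TPM in this mean, through the RRN3 siRNA libraries, since it was at 84.2 ± 5.81 TPM after control siRNA and at 158 ± 17.3 TPM after RRN3 siRNA (SD, n = 3).

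**Figure D2:**
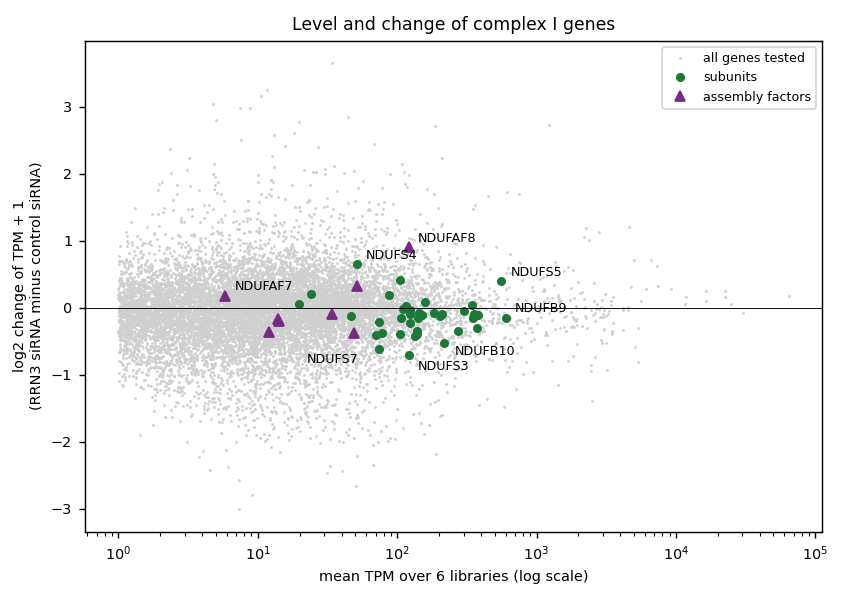
Mean TPM over the 6 libraries (log axis) against the log2 change of TPM + 1 (RRN3 siRNA minus control siRNA) for all 12157 genes tested (grey), the 38 subunit genes (circles) and the 8 assembly factor genes (triangles). Subunits sit mostly above 100 TPM, and NDUFAF8 is the highest and most changed assembly factor.

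The RefSeq windows from 250 bases before to 50 bases after the annotated start (GRCh38.p14) were available for 39 of the 46 members. They are shown for NDUFAF8, NDUFS3, NDUFS7 and NDUFB10, whose calls held in all 18 alternatives, for NDUFA8, and for NDUFS4, a gene that rose with the largest adjusted p of the called members. The capitals mark matches, on either strand, to CCGGAA (bound by ETS factors such as GABPA), to AAGATGGC (bound by YY1), and to the NRF1 palindrome, which is GCGCA, any base, then GCGC. The window of NDUFS3, a core Q-module gene that fell, lies at chr11:47578824-47579123 on the plus strand. That of NDUFS7, another core Q-module gene that fell, lies at chr19:1383657-1383956 on the plus strand. That of NDUFA8, a membrane-arm gene that fell, lies at chr9:122159730-122160029 on the minus strand. The window of NDUFB10, also a membrane-arm gene that fell, lies at chr16:1959288-1959587 on the plus strand. The window of NDUFAF8, the assembly factor that rose, lies at chr17:81239664-81239963 on the plus strand. The windows of NDUFAF8, NDUFS3 and NDUFS7 lie wholly within their genes as annotated in GENCODE 29. That of NDUFS3 also lies beyond the end of PTPMT1, a neighbouring gene described below. NDUFS4, an N-module gene that rose, has its window at chr5:53560389-53560688 on the plus strand.
NDUFS3: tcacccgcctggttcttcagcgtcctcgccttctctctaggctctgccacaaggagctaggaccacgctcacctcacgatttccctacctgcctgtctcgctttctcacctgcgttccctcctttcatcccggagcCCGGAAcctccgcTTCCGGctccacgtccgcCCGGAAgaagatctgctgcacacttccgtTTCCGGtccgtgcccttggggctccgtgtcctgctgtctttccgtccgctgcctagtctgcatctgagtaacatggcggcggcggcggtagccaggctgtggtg
NDUFS7: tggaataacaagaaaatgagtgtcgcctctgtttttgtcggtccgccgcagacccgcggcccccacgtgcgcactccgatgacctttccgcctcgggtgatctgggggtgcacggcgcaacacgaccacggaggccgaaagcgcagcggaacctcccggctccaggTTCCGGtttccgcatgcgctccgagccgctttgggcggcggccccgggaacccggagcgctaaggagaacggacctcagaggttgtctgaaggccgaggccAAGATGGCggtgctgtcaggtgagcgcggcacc
NDUFA8: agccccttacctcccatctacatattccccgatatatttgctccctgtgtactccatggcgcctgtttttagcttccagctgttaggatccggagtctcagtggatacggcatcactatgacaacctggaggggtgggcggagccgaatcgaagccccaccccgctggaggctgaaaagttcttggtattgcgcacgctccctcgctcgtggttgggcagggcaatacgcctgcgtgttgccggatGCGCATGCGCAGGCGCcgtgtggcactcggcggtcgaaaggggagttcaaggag
NDUFB10: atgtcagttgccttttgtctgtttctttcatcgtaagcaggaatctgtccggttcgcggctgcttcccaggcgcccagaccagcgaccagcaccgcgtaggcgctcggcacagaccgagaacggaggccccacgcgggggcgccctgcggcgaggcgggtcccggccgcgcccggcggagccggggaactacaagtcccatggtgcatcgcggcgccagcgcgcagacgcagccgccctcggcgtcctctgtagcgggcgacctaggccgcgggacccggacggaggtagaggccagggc
NDUFAF8: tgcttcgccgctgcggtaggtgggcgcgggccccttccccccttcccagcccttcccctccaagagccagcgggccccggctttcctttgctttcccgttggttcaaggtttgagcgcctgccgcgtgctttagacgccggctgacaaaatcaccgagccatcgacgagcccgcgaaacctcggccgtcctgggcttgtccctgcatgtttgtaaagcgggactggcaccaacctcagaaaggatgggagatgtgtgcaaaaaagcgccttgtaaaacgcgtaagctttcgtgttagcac
NDUFS4: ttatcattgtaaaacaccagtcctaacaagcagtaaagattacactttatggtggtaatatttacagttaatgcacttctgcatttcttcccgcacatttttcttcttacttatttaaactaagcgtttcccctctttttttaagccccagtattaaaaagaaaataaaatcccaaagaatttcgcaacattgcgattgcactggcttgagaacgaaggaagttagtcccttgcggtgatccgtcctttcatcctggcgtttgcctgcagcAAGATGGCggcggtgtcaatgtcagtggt

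The NDUFS3 window held 4 matches to CCGGAA, the NDUFS7 window 1 match to CCGGAA and 1 to AAGATGGC, and the NDUFS4 window 1 to AAGATGGC. The NDUFA8 window held 2 NRF1 matches that overlap each other, and the NDUFB10 and NDUFAF8 windows held none of the motifs. NDUFA8 was shown by no stated rule. The window of NDUFV1, which had a smaller limma adjusted p (0.00471, against 0.00567 for NDUFA8), held none of the motifs and is not shown. The windows shown thus do not represent all called members. Over the 39 member windows, CCGGAA was present in 28.2%, against 30.6% of the windows of tested genes. AAGATGGC was present in 15.4% of member windows, against 5.71%, and the NRF1 palindrome in 17.9%, against 12.03%. A further motif, TCAAGGTCA of the estrogen-related receptors, was found in 0 member windows and in 0.168% of tested ones. AAGATGGC was found in windows of genes that fell (NDUFS7, NDUFA6, NDUFA9), of a gene that rose (NDUFS4) and of genes that did not pass (NDUFA3, NDUFA7). A match of letters is a description and does not show binding.

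The N module, the electron input end, had 1 of 8 genes rise, 1 fall and 6 not pass. Those risen and those fallen were each 12.5%, against 11.2% and 19.0% of all genes tested. The median log2 change of the module was -0.12. NDUFS4, an accessory subunit needed for stable attachment of this module, stood at 49.1, 28.9 and 42.6 TPM after control siRNA and at 72.4, 58.5 and 57.0 TPM after RRN3 siRNA. Every RRN3 siRNA library was above every control library, although control siRNA replicate 2 was well below the other controls. The log2 change was 0.65 (SE 0.19, limma adjusted p = 0.0355). Leaving out control siRNA replicate 2 lowered the log2 change to 0.44 and ended the call (adjusted p = 0.0711). The call also ended on leaving out control siRNA replicate 3 (adjusted p = 0.0715) or RRN3 siRNA replicate 2 (adjusted p = 0.0782), with all genes kept whatever their level (adjusted p = 0.0864), and with no variance trend (adjusted p = 0.056). NDUFV1, the subunit that binds NADH and the flavin, stood at 143, 163 and 154 TPM after control siRNA and at 114, 114 and 117 TPM after RRN3 siRNA. The groups were well separated and the RRN3 siRNA values lay close together. Its log2 change was -0.42 (SE 0.07, limma adjusted p = 0.00471), and only median-of-ratios scaling, of the 18 alternatives, ended the call (adjusted p = 0.076). The iron-sulfur subunits NDUFS1 and NDUFV2, which carry electrons onward from the flavin, had log2 changes of -0.12 and 0.08 with overlapping groups. The most abundant gene of this module was NDUFS6, with 204, 203 and 229 TPM after control siRNA and 173, 194 and 218 TPM after RRN3 siRNA, and the least abundant was NDUFV3, with 21.8, 23.7 and 21.4 TPM and 25.2, 27.6 and 25.2 TPM. The former groups overlapped, and NDUFV3, higher in every RRN3 siRNA library, did not pass (limma adjusted p = 0.142). NDUFA12 and NDUFA2, accessory subunits of the same module, had log2 changes of -0.38 (adjusted p = 0.0554) and -0.23 (adjusted p = 0.182).

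In the Q module 4 of 8 genes fell (against 19.0% of all genes tested), 0 rose (against 11.2%) and 4 did not pass. The median log2 change of this module was -0.27. NDUFS3, a core subunit of the connection between both modules of the matrix arm, stood at 145, 147 and 158 TPM after control siRNA and at 84.6, 89.8 and 100.1 TPM after RRN3 siRNA. It was the largest fall among the members, to 61.0% of the control mean, with no overlap between groups. The log2 change was -0.71 (SE 0.09, limma adjusted p = 0.000797). NDUFS7, the core subunit that holds the iron-sulfur cluster next to ubiquinone, stood at 80.2, 89.3 and 101 TPM after control siRNA and at 52.0, 61.7 and 62.6 TPM after RRN3 siRNA. All RRN3 siRNA libraries were again below all control libraries. The log2 change was -0.61 (SE 0.11, limma adjusted p = 0.00568). NDUFS3 and NDUFS7 passed in all 18 alternatives, with log2 changes between -0.78 and -0.64 and between -0.69 and -0.39. The smallest NDUFS7 change, -0.39, came with GC trends removed. NDUFS7 shares 35.7% of its exon bases with the antisense gene AC005329.1 and 13.4% with the antisense gene AC005329.3. Reads of the shared bases cannot be told apart if strand was not used. The deposited values hold neither antisense gene under that name, so their levels are unknown here. NDUFS8, which carries further iron-sulfur clusters and had the highest mean of the module over the 6 libraries, stood at 139, 153 and 150.2 TPM after control siRNA and at 134.0, 134.5 and 149 TPM after RRN3 siRNA. These groups overlapped (log2 change -0.08, limma adjusted p = 0.49). After control siRNA alone, NDUFA9 (155 ± 7.07 TPM) and NDUFS3 (150.1 ± 6.81 TPM) had higher means than NDUFS8 (147 ± 7.52 TPM).

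Among the accessory Q-module genes, NDUFA9 is related to short-chain dehydrogenases and stood at 151, 151 and 163 TPM after control siRNA and at 115, 131 and 121 TPM after RRN3 siRNA. The groups did not overlap, and the log2 change was -0.34 (SE 0.08, limma adjusted p = 0.0137). This call ended after median-of-ratios scaling (adjusted p = 0.181) and with GC trends removed (adjusted p = 0.171). NDUFA6, an LYR-motif protein that binds the acyl carrier NDUFAB1, fell from 80.5 ± 11.9 to 59.8 ± 3.07 TPM (log2 change -0.41, limma adjusted p = 0.0311). Its call ended in 7 of 18 alternatives, including on leaving out control siRNA replicate 1 (adjusted p = 0.0829) or 3 (adjusted p = 0.0947) and without RRN3 siRNA replicate 2 (adjusted p = 0.0999) or 3 (adjusted p = 0.0819). NDUFA7 did not pass, with a log2 change of -0.21. NDUFA5, the least abundant, stood at 23.3, 13.8 and 21.2 TPM after control siRNA and at 22.3, 21.2 and 16.5 TPM after RRN3 siRNA, with overlapping groups. The summed TPM of the 8 Q-module genes was 803 ± 29.2 after control siRNA and 654 ± 21.3 after RRN3 siRNA, a ratio of 0.814.

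NDUFS3 has a neighbour on the same strand that bears on how its reads are counted. In GENCODE 29 NDUFS3 extends from 47565336 to 47584562 on the plus strand of chromosome 11, and PTPMT1, a mitochondrial phosphatase of cardiolipin synthesis, from 47565430 to 47573461. They share 721 exon bases, and 1 of the 13 annotated NDUFS3 transcripts starts before the end of PTPMT1. PTPMT1, named after its values were seen, stood at 10.6, 11.1 and 11.4 TPM after control siRNA and at 36.1, 34.6 and 36.1 TPM after RRN3 siRNA. It rose while NDUFS3 fell (log2 change 1.61, limma adjusted p = 3.70e-05). The sum of both genes was 161 ± 7.18 TPM after control siRNA and 127 ± 8.11 TPM after RRN3 siRNA. The part of read assignment in either value was not tested, and the annotation the authors used is not given in the sources used here.

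In the proximal membrane arm, next to the quinone site, 1 of 9 genes rose (11.1%), 2 fell (22.2%) and 6 did not pass. Among all genes tested, 11.2% rose and 19.0% fell. The median log2 change of this region was -0.10. NDUFS5, an accessory subunit with a twin cysteine motif on the intermembrane side, stood at 503, 443 and 505 TPM after control siRNA and at 591, 633 and 684 TPM after RRN3 siRNA. It was the most abundant gene of this region, and the groups did not overlap. Its log2 change was 0.39 (SE 0.09, limma adjusted p = 0.0106), and only removal of GC trends ended the call (adjusted p = 0.0716). NDUFA8, a subunit of the same side with the same kind of cysteine motif, stood at 162, 154 and 161 TPM after control siRNA and at 115, 118 and 129 TPM after RRN3 siRNA. It moved opposite to NDUFS5, again without overlap. The log2 change of NDUFA8 was -0.40 (SE 0.07, limma adjusted p = 0.00567), and only median-of-ratios scaling ended the call (adjusted p = 0.0983). NDUFC2, a small membrane subunit, fell from 304 ± 19.3 to 240 ± 26.5 TPM (limma adjusted p = 0.0286), a call that ended in 10 of 18 alternatives (highest adjusted p = 0.223), among them those on leaving out control siRNA replicate 1 (adjusted p = 0.0655) or 3 (adjusted p = 0.0971) and without RRN3 siRNA replicate 1 (adjusted p = 0.0515) or 2 (adjusted p = 0.126). NDUFA3 had the lowest mean of this region over the 6 libraries, at 111, 106 and 116 TPM after control siRNA and 76.6, 113 and 115 TPM after RRN3 siRNA. Only RRN3 siRNA replicate 1 was low, and without that library the log2 change was 0.04. The remaining genes, NDUFA1, NDUFA10, NDUFA11, NDUFA13 and NDUFC1, had log2 changes between -0.15 and 0.05.

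In the distal membrane arm 0 of 12 genes rose (against 11.2% of all genes tested), 2 fell (16.7%, against 19.0%) and 10 did not pass. The median log2 change of the arm was -0.11. NDUFB10, an accessory subunit with cysteine pairs on the intermembrane side, stood at 240.1, 260.3 and 270.5 TPM after control siRNA and at 173, 179 and 184 TPM after RRN3 siRNA. The groups lay far apart relative to their spread. The log2 change was -0.52 (SE 0.07, limma adjusted p = 0.00146), it ranged from -0.57 to -0.39 over the alternatives, and all 18 kept the call. NDUFB6, a small subunit with a membrane helix, stood at 127, 108 and 124 TPM after control siRNA and at 89.5, 96.4 and 86.6 TPM after RRN3 siRNA. The groups did not overlap, and the log2 change was -0.39 (SE 0.09, limma adjusted p = 0.0131). This call ended after median-of-ratios scaling (adjusted p = 0.0812) and with GC trends removed (adjusted p = 0.122). NDUFB9, an LYR-motif subunit with the highest mean of all members over the 6 libraries, stood at 611, 623 and 670 TPM after control siRNA and at 528, 573 and 618 TPM after RRN3 siRNA. These groups overlapped and it did not pass (limma adjusted p = 0.212). After RRN3 siRNA alone NDUFS5 had the higher mean, at 636 ± 47.0 TPM against 573 ± 45.2 TPM. NDUFB3, another small membrane subunit, stood at 102, 71.0 and 99.7 TPM and at 122, 121 and 118 TPM. It was the one gene of the arm with higher values in every RRN3 siRNA library, with a log2 change of 0.42, and missed the threshold (limma adjusted p = 0.0536); it passed upward in 7 of 18 alternatives. The lowest mean of the arm was that of NDUFB3 after control siRNA (90.9 ± 17.4 TPM) and that of NDUFB6 after RRN3 siRNA (90.9 ± 5.02 TPM). NDUFB4 was lower in every RRN3 siRNA library and missed it too, with a log2 change of -0.30 (adjusted p = 0.0544). The remaining 7 genes, which include the acyl carrier NDUFAB1, had log2 changes between -0.16 and -0.04.

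**Figure D3:**
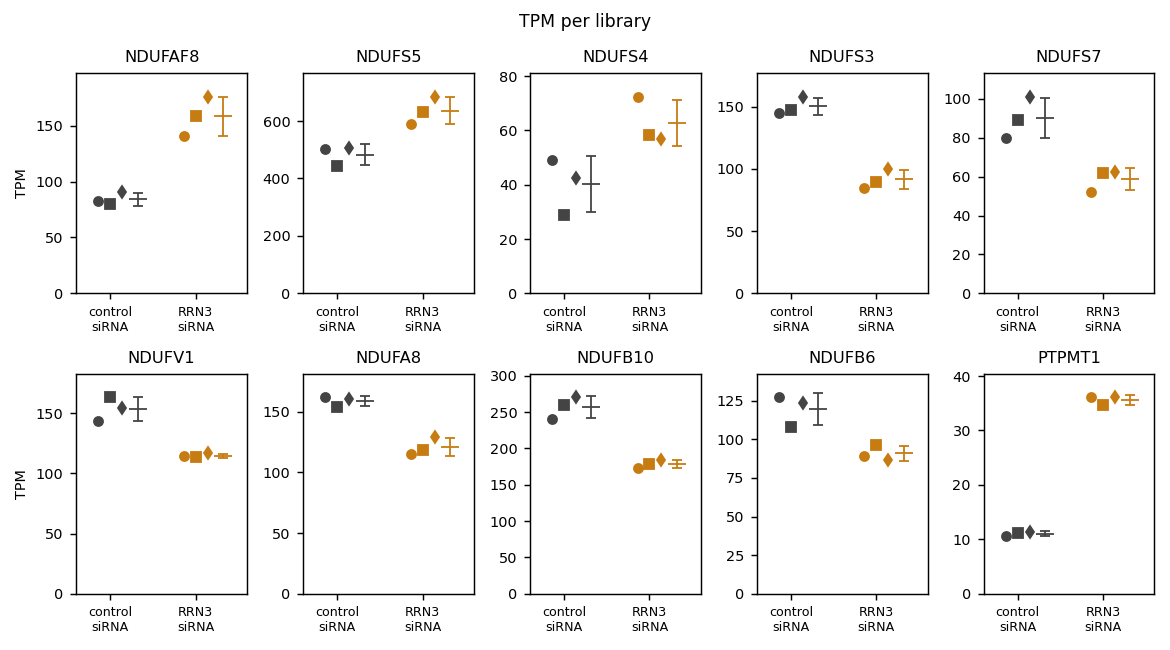
TPM in each library for 9 members, and for PTPMT1, the same-strand neighbour of NDUFS3. Circles, squares and diamonds are replicates 1, 2 and 3, and the bar gives the mean ± SD (n = 3). In each panel all 3 RRN3 siRNA libraries lie on one side of all 3 control libraries, above them for NDUFAF8, NDUFS5, NDUFS4 and PTPMT1 and below them for the others.

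Across modules, 3 of the 7 nuclear core genes fell (NDUFV1, NDUFS3 and NDUFS7, 42.9%) and 0 rose. Of the 30 accessory subunits 6 fell (20.0%) and 2 rose (6.67%). Among all genes tested, 19.0% fell and 11.2% rose. A difference between core and accessory genes was not tested. Summed over the 7 core genes, TPM was 824 ± 4.95 after control siRNA and 705 ± 7.33 after RRN3 siRNA. Summed over the 37 nuclear subunit genes without NDUFA4, TPM came to 7091, 6697 and 7423 for control siRNA, against 6117, 6541 and 6951 for RRN3 siRNA. RRN3 siRNA replicate 3 was thus above control siRNA replicate 2, so the groups overlapped for the whole set and not for the core genes. RRN3 siRNA replicate 1 was the lowest of its group for 28 of the 46 members. Control siRNA replicate 2 was likewise the lowest of its group for 28 members. Without both replicates numbered 1 the members split into 5 risen and 12 fallen (37.0% called, against 39.8% of all genes). NDUFA4, the complex IV subunit, stood at 120.0, 103 and 120.5 TPM after control siRNA and at 107, 124 and 119 TPM after RRN3 siRNA, with overlapping groups.

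Of the 8 assembly factors 1 rose (12.5%, against 11.2% of all genes tested), 1 fell (12.5%, against 19.0%) and 6 did not pass. Their median log2 change was -0.13, against -0.12 for the 38 subunit genes. Subunits and assembly factors thus differed by 0.02 in median log2 change, a difference whose sign turned in 4 of the 18 alternatives. NDUFAF8, the partner that stabilises NDUFAF5, stood at 82.2, 79.7 and 90.8 TPM after control siRNA and at 141, 159 and 176 TPM after RRN3 siRNA. The groups were far apart, and this was the largest change of any member, a 1.88-fold rise (log2 change 0.90, SE 0.10, limma adjusted p = 0.000543). The call was kept in all 18 alternatives, with log2 changes of 0.82 to 1.04. NDUFAF8 lies on the plus strand of chromosome 17 at 81239239 to 81241281 in GENCODE 29, shares no exon bases with another gene there, and starts 148 bases from the divergent gene TEPSIN, which was at 13.3 ± 1.45 and 15.7 ± 1.07 TPM (limma adjusted p = 0.212). NDUFAF5, the methyltransferase-fold enzyme that hydroxylates an arginine of NDUFS7, stood at 17.9, 14.2 and 14.1 TPM after control siRNA and at 14.02, 12.2 and 13.5 TPM after RRN3 siRNA. It was slightly lower in every RRN3 siRNA library and did not pass (log2 change -0.20, limma adjusted p = 0.305). Of the genes of this modification step, the stabilising partner therefore rose, the substrate NDUFS7 fell and the enzyme did not pass.

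NDUFAF3, which builds the Q module together with NDUFAF4, fell from 55.7 ± 6.09 to 42.5 ± 3.03 TPM (log2 change -0.38, limma adjusted p = 0.0317). That call ended in 10 of 18 alternatives, with adjusted p up to 0.183 and a log2 change of -0.24 when GC trends were removed, among them those on leaving out control siRNA replicate 2 (adjusted p = 0.104) or 3 (adjusted p = 0.103) and without RRN3 siRNA replicate 1 (adjusted p = 0.06) or 2 (adjusted p = 0.098). It shares 527 exon bases with DALRD3 on the opposite strand, which fell from 39.6 ± 0.689 to 24.2 ± 0.818 TPM (limma adjusted p = 0.000853). Reads of the shared bases cannot be told apart unless strand was used, which the sources here do not state. NDUFAF4 itself had a log2 change of -0.10. NDUFAF2, a relative of NDUFA12 that acts late in assembly, had a log2 change of 0.32 with limma adjusted p = 0.0791, opposite in sign to the -0.38 of NDUFA12. NDUFAF7, a mitochondrial methyltransferase and the least abundant member, stood at 6.90, 4.64 and 4.83 TPM after control siRNA and at 6.74, 6.26 and 5.73 TPM after RRN3 siRNA. These groups overlapped. NDUFAF1 and NDUFAF6 had log2 changes of -0.17 and -0.36 and did not pass (adjusted p = 0.528 and 0.113). Without both libraries numbered 1, 2 assembly factors rose and 2 fell, NDUFAF2 and NDUFAF6 having joined NDUFAF8 and NDUFAF3. In that setting 39.8% of all genes were called.

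Of 12 further assembly factors that lack the NDUF name, 1 rose (8.33%), 5 fell (41.7%) and 6 did not pass. Among all genes tested, 11.2% rose and 19.0% fell. The list median of log2 change was -0.14. ECSIT, a scaffold of the early membrane-arm intermediate together with NDUFAF1 and ACAD9, fell from 57.5 to 27.9 TPM (log2 change -1.02, limma adjusted p = 0.000319). FOXRED1, a flavoprotein of later assembly, fell from 22.6 to 12.6 TPM and DMAC2 from 83.6 to 52.4 TPM (adjusted p = 0.000994 and 0.000506). These 3 calls held in all 18 alternatives, and ECSIT changed more than any of the 46 members. The other 3 calls were less stable. COA1 fell with a log2 change of -0.30 (limma adjusted p = 0.0214), and its call ended in 8 alternatives, among them those leaving out control siRNA replicate 1 (adjusted p = 0.0631) and RRN3 siRNA replicate 2 (adjusted p = 0.11) or 3 (adjusted p = 0.0532). ACAD9 fell with a log2 change of -0.29 (limma adjusted p = 0.0459), and its call ended in 10 alternatives, including on leaving out any single library (adjusted p from 0.0546 to 0.157). TIMMDC1, the one that rose, had a log2 change of 0.27 (limma adjusted p = 0.0256), and its call ended in 9 alternatives, including on leaving out any single library (adjusted p from 0.0524 to 0.0876) other than control siRNA replicate 3. Complex I assembly genes therefore moved both ways, with NDUFAF8 up and ECSIT, FOXRED1 and DMAC2 down.

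The 7 subunits encoded by the mitochondrial genome form the hydrophobic core of the membrane arm. Of them 4 rose (57.1%), 0 fell and 3 did not pass, with a median log2 change of 0.28. Among all genes tested, 11.2% rose and 19.0% fell. MT-ND1, the subunit at the entrance of the quinone channel, stood at 3431, 3983 and 3917 TPM after control siRNA and at 5810, 6271 and 6523 TPM after RRN3 siRNA. It was higher in every RRN3 siRNA library (log2 change 0.72, limma adjusted p = 0.000929) and kept its call in the 17 alternatives in which it was measured. MT-ND2, MT-ND5 and MT-ND6, further subunits of the membrane arm, had log2 changes of 0.29, 0.31 and 0.28 (limma adjusted p = 0.043, 0.0173 and 0.0341). Their calls ended in 10, 6 and 9 of the 17 alternatives, median-of-ratios scaling among them (adjusted p = 0.21, 0.128 and 0.214), and the MT-ND6 change was 0 after quantile normalization. MT-ND3, MT-ND4 and MT-ND4L did not pass. MT-ND4 and MT-ND4L overlap on a shared transcript, so reads can be split between them. The labels name polyA RNA as the molecule and ribosomal RNA depletion with random priming as the preparation, and which applied was not tested. The summed TPM of the 7 genes was 64251 ± 3119 after control siRNA and 75273 ± 3649 after RRN3 siRNA, a ratio of 1.17, against 0.924 for the 37 nuclear subunit genes. Neither ratio was tested. Once mitochondrial and ribosomal protein genes were dropped and TPM rescaled, the median log2 change of the 46 members was -0.08 and that of all genes -0.02.

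**Figure D4:**
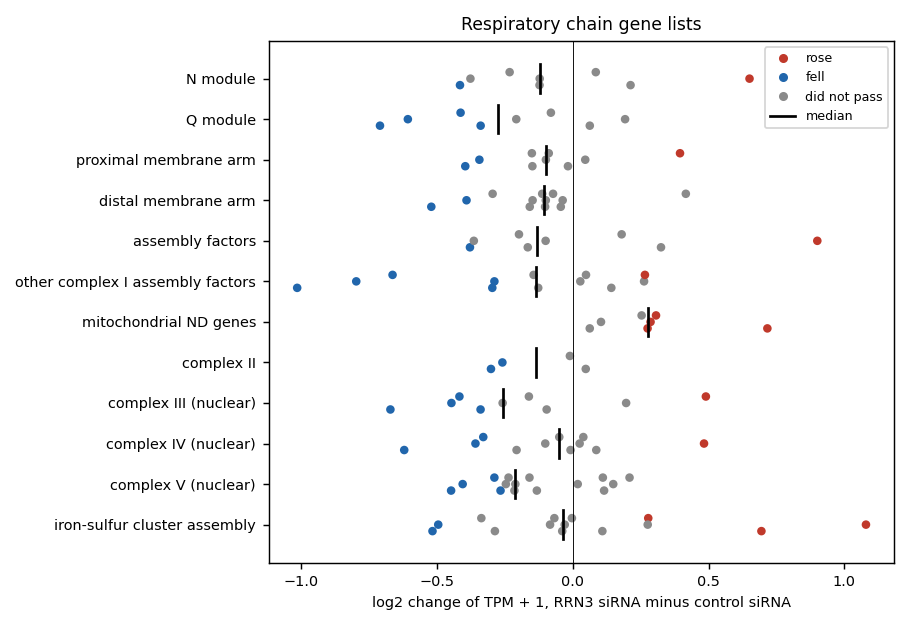
Log2 change of TPM + 1 (RRN3 siRNA minus control siRNA) for each gene of the complex I modules, the assembly factors and 7 comparison lists, with the list median as a black bar and colour giving the limma call. All 7 mitochondrial ND genes lie above 0, and the medians of the nuclear lists lie between -0.27 and -0.03.

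Features outside expression varied among members. They lie on 22 chromosomes. Transcript GC content ranged from 36.7% for NDUFA5 to 65.6% for NDUFS7, with a median of 48.9% against 51.0% for all genes tested, and the median transcript length was 686 bases against 1007. Across the 46 members, Spearman's rho between GC content and log2 change was -0.20, against -0.13 over all genes tested; these genes share the same libraries and are not replicates. Of the members, 14 start within 1000 bases of a protein-coding gene that runs the other way, and 25 share exon bases with another annotated gene. Among these 25 are 8 of the 13 called members. Besides NDUFS3, the called NDUFC2, NDUFA9 and NDUFV1 share up to 16.3%, 10.6% and 8.4% of theirs with a gene on the same strand. Strand cannot separate such reads, and their part in the results was not tested. The 14 rows of the table named as pseudogene copies of members were below 1 TPM on average except NDUFV2P1, at 3.94 ± 0.685 TPM after control siRNA and 5.03 ± 0.195 TPM after RRN3 siRNA. NDUFV2 itself was at 153 ± 17.0 and 162 ± 12.04 TPM.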

How the data were processed

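Poly(A) or ribosomal RNA-depleted RNA of HCT116 cells was sequenced after control siRNA or RRN3 siRNA, 3 libraries each. The authors deposited 1 table of TPM values per gene; GRCh38, STAR and Salmon appear in the submitters' processing notes with no role or version. Depth is unknown, because TPM does not keep it, so no counting intervals are given. Values were tested as log2(TPM + 1) for genes with mean TPM of at least 1 (12157 of 25662) with limma 3.58.1 in R 4.3.3, with a variance trend and Benjamini-Hochberg adjustment over all genes tested; a change on this scale understates that of low genes. The method was tested on simulated data with independent genes and with added changes larger than that of any member in the main fit. That test therefore did not cover changes of the size seen in members. Members followed the symbol rule. Members and gene lists were chosen with earlier results of these data known. Values per library were given for called members with a log2 change of at least 0.5 in either direction, for the 8 members with the smallest adjusted p and for the highest and lowest of each module; a few others shown were chosen after their values were seen. Annotation was GENCODE 29, and promoter windows were from RefSeq GRCh38.p14. The 18 alternatives changed the pseudocount, filter, scaling, GC trend, variance model, replicate block or libraries. Of the members, 1 enters the counts, medians and sums but is not reported here by name.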

Additional observations from a re-analysis of the deposited data

How the results depend on the processing

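Of the 13 called members, NDUFAF8, NDUFS3, NDUFB10 and NDUFS7 passed in all 18 alternatives, and 0 of the 13 changed sign in any. Counts of calls moved more; where a change in construction is not named, the cause was not tested. Over all genes, 5546 were called with a replicate block, and 2295 rose; 2205 rose after quantile normalization and 2729 with GC trends removed. Leaving out 1 library gave 2240 to 4254 genes called, 788 to 1273 risen and 1452 to 3000 fallen. The lowest of each came without RRN3 siRNA replicate 2, and 893 rose without control siRNA replicate 3. Of the 38 subunits, 6 were called and 3 fell after median-of-ratios scaling; 1 rose without a filter or without a variance trend, and 4 rose after quantile normalization, rescaling or with the block. Leaving out 1 library gave 8 to 13 subunits called, 1 to 3 risen and 7 to 11 fallen, and 1 to 3 assembly factors called, 1 to 2 risen and 0 to 1 fallen. Of the 8 assembly factors, 1 was called and 0 fell without a filter, without a variance trend and after median-of-ratios scaling, quantile normalization or rescaling; 4 were called, 2 risen and 2 fallen, with the block and without both libraries numbered 1. Deviations of same-numbered libraries correlated at 0.42, 0.095 and 0.16, although control siRNA replicate 2 correlated best with RRN3 siRNA replicate 3 (0.19). These values do not settle whether the replicate numbers pair the libraries. With the block, 6 members rose and 14 fell (43.5% called, against 45.6% of all genes).

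Sign changes concerned uncalled members near 0. After median-of-ratios scaling NDUFA10 was at 0.0568, NDUFAB1 at 0.0309, NDUFB2 at 0.00229 and NDUFB5 at 0.0374. After quantile normalization NDUFA10 was at 0.0177, NDUFAB1 at 0.0212 and NDUFB5 at 0.00693, and after rescaling NDUFA10 was at 0.0161. With GC trends removed NDUFA13 was at 0.0448, NDUFB5 at 0.00229, NDUFB7 at 0.10 and NDUFS8 at 0.0652. Without both libraries numbered 1, NDUFA1 was at 0.0112 and NDUFA3 at 0.0393. Leaving out 1 library gave NDUFA10 -0.0999 to 0.0462, NDUFA11 -0.0399 to 0.125, NDUFA13 -0.209 to 0.0390, NDUFA3 -0.250 to 0.0421, NDUFA4 -0.0482 to 0.0838, NDUFA5 -0.155 to 0.203, NDUFAF1 -0.300 to 0.0151 and NDUFB5 -0.174 to 0.0893. Depth limits could not be measured from TPM.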

Other observations

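Lists other than complex I were also chosen with earlier results known. Of 14 iron-sulfur cluster assembly genes 3 rose (21.4%) and 2 fell (14.3%), against 11.2% and 19.0% of all genes tested. The list median of log2 change was -0.03. ISCU, the scaffold on which clusters form, rose from 61.6 to 131 TPM (log2 change 1.08, limma adjusted p = 6.24e-05), and FDXR, which feeds electrons to that machinery, rose from 74.1 to 121 TPM (adjusted p = 0.00121). GLRX5, a cluster carrier, fell from 131 to 92.7 TPM and ISCA2, which acts late, from 48.5 to 33.6 TPM (adjusted p = 0.00133 and 0.00679). These 4 calls held in all 18 alternatives. NFS1, the cysteine desulfurase that supplies the sulfur, rose with a log2 change of 0.28 (limma adjusted p = 0.049986), and its call ended in 13 of 18 alternatives, including on leaving out any single library (adjusted p from 0.0514 to 0.177).

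Of the other respiratory complexes, 2 of 4 complex II genes fell and 0 rose. Of 9 nuclear complex III genes 4 fell (44.4%) and 1 rose (11.1%). Of 11 nuclear complex IV genes 3 fell (27.3%) and 1 rose (9.09%). For complex V 4 of 15 nuclear genes fell (26.7%) and 0 rose. The shares over all genes tested were 19.0% fallen and 11.2% risen. The list medians of log2 change were -0.13, -0.26, -0.05 and -0.21. CYC1, the cytochrome c1 of complex III, fell from 499 to 313 TPM and COX8A of complex IV from 712 to 463 TPM (limma adjusted p = 0.00078 and 0.005), and both calls held in all 18 alternatives, as did that of UQCRFS1, the Rieske iron-sulfur protein of complex III. The other 12 of the 15 calls in these complexes ended in 1 to 12 alternatives. The keratin KRT8 stood at 2798 ± 321 TPM after control siRNA and at 6409 ± 235 TPM after RRN3 siRNA.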
